A study of Mus musculus with 24 samples.

Results

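The genes described here are 10 grouped under intermediate progenitor and proneural genes of the embryonic cortex. They are Eomes, Neurog1, Neurod1, Nhlh1, Hes6, Gadd45g, Dll3, Mfng, Rnd2 and Heg1. They were taken by symbol from a table of merged STAU2 peaks and account for 16 of its 14297 peak rows that carry a gene, and for 10 of its 7970 genes. The labels describe brain cortex of C57BL/6 mouse embryos at 4 stages (E11.5, E13.5, E15.5, then E17.5), with 3 immunoprecipitations by an antibody against STAU2 and 3 inputs at each stage. The embryos carry no engineered allele or treatment in the labels, and the labels do not say whether the 3 libraries of a stage come from separate animals. The 12 immunoprecipitation libraries were analysed. Inputs were not analysed here, so a different amount of an RNA and different binding by STAU2 cannot be told apart, and in bulk tissue fewer cells of a type and less RNA per cell cannot be told apart either.

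Intermediate progenitors arise from radial glia, divide away from the ventricle and give rise to projection neurons. The step from radial glia is driven by basic helix-loop-helix factors of the Neurogenin and Neurod families, and it is held in check by Notch signalling between neighbouring cells, in which a committed cell presents ligand and the receiving cell keeps Hes repressors on. STAU2 binds double-stranded stretches of RNA and is known in the developing cortex for passing preferentially to the daughter cell that becomes an intermediate progenitor.

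Counts over the gene rows ranged from 4688215 to 6374892 per library. Levels are given as CPM after TMM scaling, which sets the bulk of genes equal between libraries. The E11.5 libraries stood apart: TMM factors were 0.477 to 0.596 there and 1.16 to 1.39 in the other 9, and 56.3% to 64.0% of their gene-row counts lay in rows called intron, against 22.6% to 34.0% later. Scaling by gene-row totals instead shifted the median gene by 1.18 on the log2 scale at E13.5 against E11.5 and by 1.21 at E17.5 against E11.5. Changes are therefore given relative to the bulk of genes under TMM. Of 8 cortex markers, 7 had a tested gene row, all but Bcl11b, and they summed to between 1706 CPM (E11.5) and 2826 CPM (E15.5) in every library.

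The 10 RNAs were together most abundant among STAU2-bound RNA in the middle of the series. Their summed level was 468 to 585 CPM in the E11.5 libraries, 1138 to 1340.3 CPM in those of E13.5, 861 to 1389.6 CPM in those of E15.5 and 259 to 286 CPM in those of E17.5. The order of the end stages depends on the scaling. As a plain share of gene-row counts the members held 0.0276% to 0.0287% at E11.5 and more, 0.031% to 0.0349%, at E17.5. The highest mean fell at E13.5 for 6 genes (Eomes, Neurog1, Dll3, Mfng, Rnd2 and Heg1) and at E15.5 for the other 4. Among all 7876 genes tested, 24.0% had their highest mean at E13.5 or E15.5. All 10 differed over the 4 stages (edgeR quasi-likelihood F test, adjusted p from 7.60e-07 for Neurog1 to 0.0283 for Hes6), as did 53.7% of all genes.

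**Figure D1:**
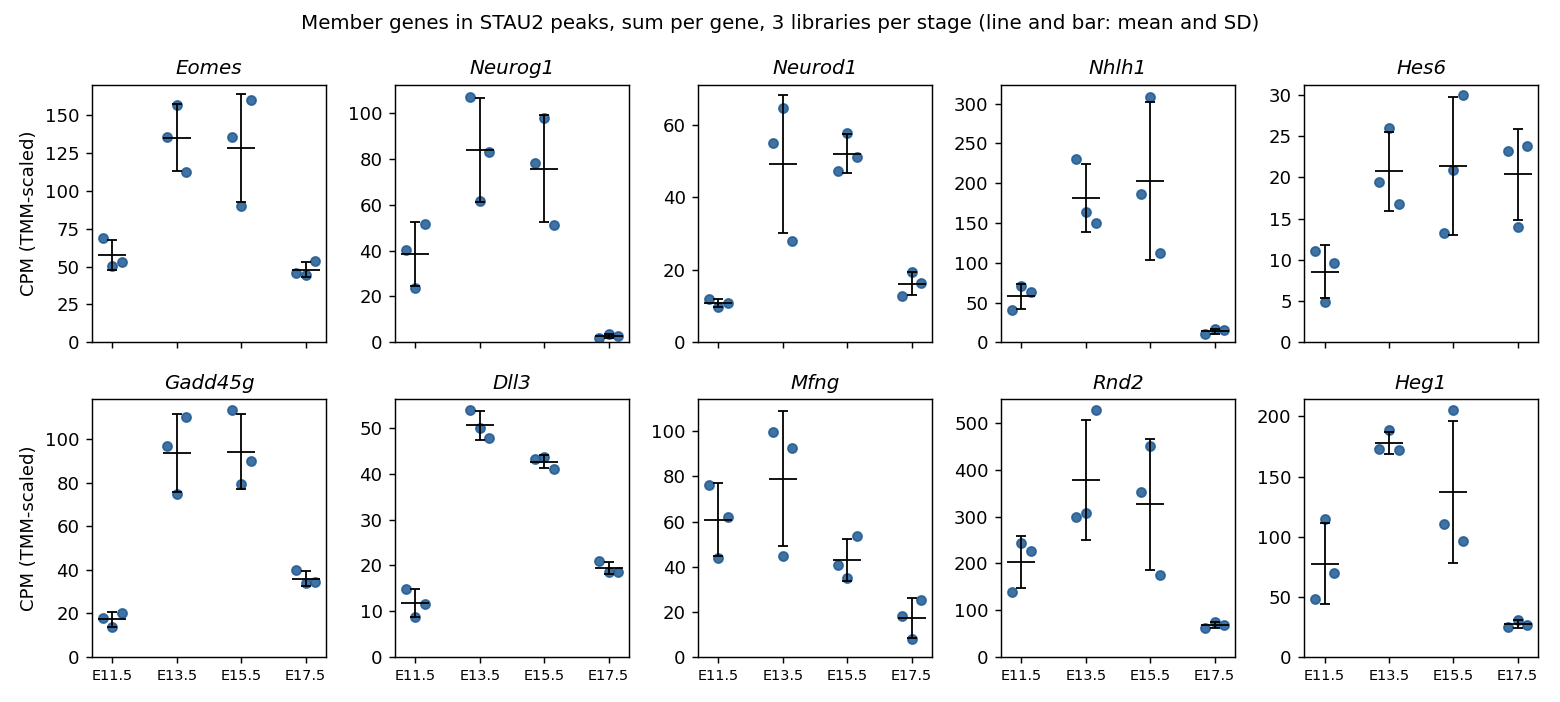
Level of each of the 10 genes (CPM, summed over the peaks of the gene; linear axes from 0) in the 3 libraries of each stage, with points for libraries and lines with bars for mean and SD. In 9 of the 10 panels the E17.5 libraries all lie below the E15.5 libraries, and the exception is Hes6. How often libraries lie apart in this way over all genes was not counted.

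Set against E11.5, 8 of the 10 genes were higher at E13.5 and 0 were lower (edgeR, Benjamini-Hochberg adjusted p under 0.05 over all genes), where 12.7% of all genes were called higher. The median log2 change of the 10 was 1.25, and that of all genes 0.04. The 10 genes and the gene lists below were chosen with earlier results of these data known. Values over all genes, here and throughout, therefore give scale and are no independent test. The 3 E13.5 libraries lay above the 3 E11.5 libraries for every member but Mfng. How often this holds over all genes was not counted. Rnd2 at 0.90 ± 0.34 (log2 change ± SE, adjusted p = 0.0669) and Mfng at 0.38 ± 0.38 (adjusted p = 0.512) did not pass. With scaling by gene-row totals all 10 were called higher, but so were 65.7% of all genes (1.75% were called lower), so that count says little about the 10.

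Between E13.5 and E15.5 none of the 10 passed the edgeR test, and 0.673% of all genes were called in either direction. DESeq2 also called 0 members, and 1 member had an unadjusted p under 0.05, Mfng, with a change of -0.88 ± 0.38 (adjusted p = 0.475). The other changes lay between -0.37 for Heg1 and 0.16 for Nhlh1 on the log2 scale.

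At E17.5, 9 of the 10 genes were lower than at E15.5 and 0 were higher, where 11.1% of all genes were called lower. The median log2 change of the 10 was -1.55, and that of all genes 0.003. Here too the 10 were chosen with earlier results known, so the contrast is no independent test. Hes6 was the exception, at -0.07 ± 0.35 (log2 change ± SE, adjusted p = 0.912). Both the rise at E13.5 and the fall at E17.5 were called for 7 members (Eomes, Neurog1, Neurod1, Nhlh1, Gadd45g, Dll3 and Heg1), and for 131 of the 7876 genes tested (1.66%).

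At E17.5 against E11.5, Hes6, Gadd45g and Dll3 were higher, 3 of 10 where 28.8% of all genes were called higher, and Neurog1, Nhlh1, Rnd2, Mfng and Heg1 were lower, 5 of 10 where 29% of all genes were called lower. Eomes at -0.27 ± 0.26 (log2 change ± SE, adjusted p = 0.392) and Neurod1 at 0.57 ± 0.32 (adjusted p = 0.135) did not pass. This comparison depends on the scaling: with gene-row totals, under which 59.2% of all genes were called higher and 10.3% lower, the split was 5 higher and 2 lower, Eomes turned to 0.92 (adjusted p = 0.0105), Neurod1 was called higher at 1.77, and the falls of Rnd2, Mfng and Heg1 no longer passed (log2 changes of -0.33, -0.64 and -0.26). The falls of Neurog1 and Nhlh1 and the rises of Hes6, Gadd45g and Dll3 passed under both scalings.

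**Figure D2:**
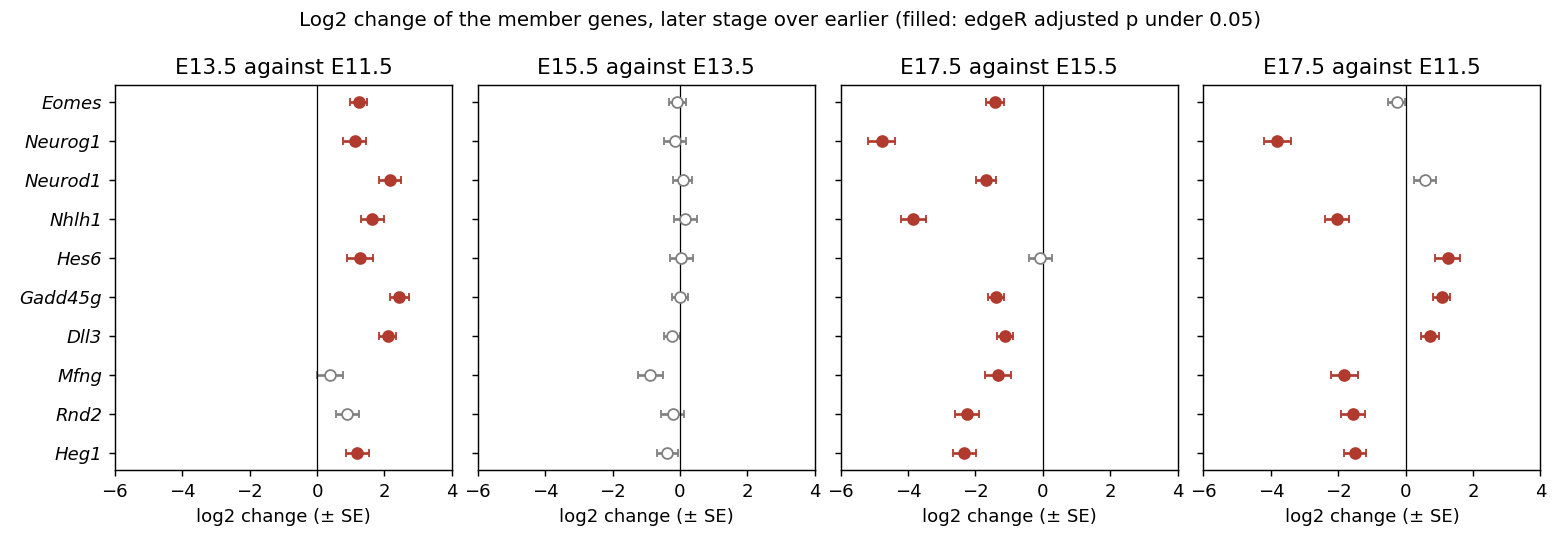
Log2 change of each gene at the later stage over the earlier (horizontal axis, with SE) in 4 comparisons, filled where the edgeR adjusted p is under 0.05. All changes at E15.5 against E13.5 are open, and at E17.5 against E15.5 Neurog1 and Nhlh1 lie farthest left, at -4.78 and -3.84.

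Eomes, also called Tbr2, is the T-box transcription factor that defines intermediate progenitors. The gene lies on the plus strand of chromosome 9 (118478212 to 118486132, mm10) and holds peak 1 in its first exon and peak 2 in the 3' UTR of its last, the sixth. The coding part of peak 1 is printed because it is the stretch of the open reading frame that was counted. The capitals mark both arms of the longest helix that RNAfold predicts in it, of 5 base pairs. It lies at chr9:118479433-118479546 on mm10, plus strand, and was read from the GENCODE vM21 transcript.
Eomes peak 1, coding part: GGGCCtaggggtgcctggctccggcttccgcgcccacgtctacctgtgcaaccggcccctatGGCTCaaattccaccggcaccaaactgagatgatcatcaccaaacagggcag

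Eomes had 68.7, 50.4 and 53.3 CPM in the E11.5 libraries, 135, 157 and 113 at E13.5, 135, 89.7 and 160 at E15.5, and 45.6, 44.2 and 53.4 at E17.5. The libraries of the middle stages all lay above those of the first and the last, which overlapped each other. Eomes was 2.34-fold higher at E13.5 than at E11.5 (log2 change 1.23 ± 0.26, adjusted p = 0.00304) and 2.68-fold lower at E17.5 than at E15.5 (-1.42 ± 0.26, adjusted p = 0.00154). Most of its counts, 86.5% to 90.5% by stage mean, came from peak 2 in the 3' UTR. The 2 peaks changed alike: at E13.5 against E11.5 by 1.52 ± 0.38 (peak 1) and 1.22 ± 0.35 (peak 2), then by -1.33 ± 0.36 and -1.43 ± 0.35 at E17.5 against E15.5, on the log2 scale.

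Neurog1 is a proneural factor that commits progenitors to the neuronal fate. It is a gene of a single exon on the minus strand of chromosome 13 (56250478 to 56252163), and both of its peaks are called 3' UTR in the table. In GENCODE, 192 of the 345 bases of peak 1 are the last coding bases of the gene. That stretch is printed because it shows what the call of 3' UTR leaves out. Capitals mark both arms of its longest predicted helix, of 5 base pairs. It lies at chr13:56251201-56251392 on mm10, minus strand.
Neurog1 peak 1, coding part: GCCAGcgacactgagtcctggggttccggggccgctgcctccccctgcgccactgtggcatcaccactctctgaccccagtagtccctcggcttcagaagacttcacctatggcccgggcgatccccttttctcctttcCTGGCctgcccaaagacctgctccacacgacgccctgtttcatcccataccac

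The level of Neurog1 was 40.3, 23.9 and 51.7 CPM at E11.5, 107, 61.8 and 82.8 at E13.5, 78.2, 97.8 and 51.1 at E15.5, and 1.82, 3.55 and 2.84 at E17.5, where it rested on 11, 20 and 18 counts. All 3 E17.5 libraries lay far below the other 9. Neurog1 fell 27.5-fold at E17.5 against E15.5 (log2 change -4.78 ± 0.41, adjusted p = 4.08e-06), the largest change among the 10, and stood at -3.81 ± 0.40 against E11.5 (adjusted p = 1.21e-06). Its rise at E13.5 was 2.17-fold (1.12 ± 0.34, adjusted p = 0.0230) and did not pass without E11.5 library 1 (adjusted p = 0.058), E11.5 library 2 (0.0930) or E13.5 library 1 (0.103). At E17.5 against E15.5 peak 1 changed by -5.06 ± 0.56 and peak 2 by -4.51 ± 0.46 on the log2 scale.

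Neurod1, a basic helix-loop-helix factor that acts after the neurogenins, has a single peak in its second exon, chr2:79454694-79454838 on mm10, minus strand. All of it is coding, bases 200 to 344 of an open reading frame of 1071. It is printed whole, with capitals for both arms of the longest predicted helix, of 7 base pairs.
Neurod1 peak: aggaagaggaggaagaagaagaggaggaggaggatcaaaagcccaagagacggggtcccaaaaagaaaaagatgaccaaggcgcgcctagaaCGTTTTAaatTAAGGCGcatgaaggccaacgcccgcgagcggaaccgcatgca

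The peak of Neurod1 also overlaps Cerkl on the same strand and Gm26755 on the opposite strand in GENCODE, so its counts are uncertain in origin. Neurod1 had 11.9, 9.86 and 10.8 CPM at E11.5, 55.0, 64.5 and 28.0 at E13.5, 47.1, 57.8 and 51.1 at E15.5, and 12.9, 19.4 and 16.4 at E17.5. The middle stages did not overlap the outer ones. It was 4.50-fold higher at E13.5 than at E11.5 (log2 change 2.17 ± 0.32, adjusted p = 1.89e-04) and 3.20-fold lower at E17.5 than at E15.5 (-1.68 ± 0.30, adjusted p = 0.00138).

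Nhlh1, a basic helix-loop-helix factor of newborn neurons, lies on the minus strand of chromosome 1 (172052292 to 172057573), with both peaks in the 3' UTR of exon 2. Its levels were 40.6, 70.9 and 62.9 CPM at E11.5, 229.9, 163 and 150.2 at E13.5, 186, 309 and 113 at E15.5, and 10.7, 16.3 and 15.3 at E17.5. The E17.5 libraries lay below every other library, and the E15.5 libraries spread over the widest range. Nhlh1 rose 3.12-fold at E13.5 against E11.5 (log2 change 1.64 ± 0.35, adjusted p = 0.00293). At E17.5 it was 14.3-fold lower than at E15.5 (-3.84 ± 0.38, adjusted p = 1.53e-05) and also lower than at E11.5 (-2.04 ± 0.36, adjusted p = 1.82e-04).

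Hes6 belongs to the Hes family but opposes Hes1 and favours neuronal differentiation. Its single peak on chromosome 1 (91412716 to 91413060, minus strand) runs over exons 1 to 3, with 173 coding and 172 intronic bases. Hes6 had 11.05, 4.93 and 9.65 CPM at E11.5, 19.4, 26.0 and 16.7 at E13.5, 13.3, 20.9 and 29.9 at E15.5, and 23.1, 14.0 and 23.9 at E17.5. Every library after E11.5 lay above the E11.5 libraries, and the 3 later stages overlapped. The log2 change was 1.27 ± 0.38 at E13.5 against E11.5 (adjusted p = 0.0228) and 1.24 ± 0.38 at E17.5 against E11.5 (adjusted p = 0.0110). Without E11.5 library 2, its lowest, these calls were lost (adjusted p = 0.0933 and 0.0530), and the first also without E13.5 library 2 (0.0764).

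Gadd45g, a growth arrest and DNA damage response protein, has 1 peak at the 3' end of its last exon on chromosome 13 (51848118 to 51848522, plus strand), of which 351 bases are 3' UTR and 54 lie beyond the annotated gene. It had 17.9, 13.7 and 20.1 CPM at E11.5, 96.7, 74.7 and 110.1 at E13.5, 113, 79.6 and 90.2 at E15.5, and 40.0, 33.7 and 34.3 at E17.5. The E17.5 libraries lay between the E11.5 libraries and those of the middle stages, with no overlap. Its rise at E13.5 was the largest of the 10, 5.44-fold (log2 change 2.44 ± 0.27, adjusted p = 1.40e-05). At E17.5 it was 2.62-fold lower than at E15.5 (-1.39 ± 0.25, adjusted p = 0.00139) and 2.09-fold higher than at E11.5 (1.06 ± 0.26, adjusted p = 0.00258).

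Dll3 is a divergent Notch ligand that blocks Notch signalling in the cell that makes it. On chromosome 7 (28293553 to 28302238, minus strand) it holds peak 1 over exon 2 and the intron beside it and peak 2 over the last exon, mostly 3' UTR. Dll3 had 14.9, 8.72 and 11.6 CPM at E11.5, 54.0, 49.9 and 47.9 at E13.5, 43.2, 43.6 and 41.0 at E15.5, and 21.0, 18.6 and 18.6 at E17.5. It was the only member whose libraries did not overlap between any stages, E15.5 against E13.5 included, where the test did not pass (log2 change -0.25 ± 0.24, adjusted p = 0.844). Dll3 was 4.28-fold higher at E13.5 than at E11.5 (2.10 ± 0.26, adjusted p = 4.03e-05) and 2.19-fold lower at E17.5 than at E15.5 (-1.13 ± 0.24, adjusted p = 0.00402). Its level at E17.5 against E11.5 was 0.72 ± 0.26 higher (adjusted p = 0.0250), a call lost without E11.5 library 2 (0.107), E11.5 library 3 (0.0586) or E17.5 library 1 (0.0695) with only those stages in the fit (0.0786), with peaks of at least the median score (0.0688) and without the 4 libraries numbered 2 (0.175).

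Mfng, a fringe glycosyltransferase that tunes which ligands a Notch receptor answers to, has a peak over the end of its last exon on chromosome 15 (78755762 to 78756166, minus strand). Its levels were 76.1, 44.0 and 62.1 CPM at E11.5, 99.8, 44.6 and 92.8 at E13.5, 40.5, 35.2 and 53.5 at E15.5, and 18.2, 7.81 and 25.3 at E17.5. The E13.5 and E11.5 libraries overlapped, and all E17.5 libraries lay below the rest. In every stage library 2 held the lowest value. Mfng was 3.55-fold lower at E17.5 than at E11.5 (log2 change -1.83 ± 0.40, adjusted p = 0.00107) and 2.51-fold lower than at E15.5 (-1.33 ± 0.39, adjusted p = 0.0254). The second call was lost without E15.5 library 1 (adjusted p = 0.05001, just over the threshold), E15.5 library 3 (0.0889), E17.5 library 1 (0.0632) or E17.5 library 2 (0.0820).

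Rnd2, a small GTPase that acts below Neurog2 in the migration of newborn cortical neurons, has a single peak of 145 bases in the 3' UTR of its last exon on chromosome 11 (101471671 to 101471815, plus strand). It had 139, 244 and 226 CPM at E11.5, 299.7, 308 and 527 at E13.5, 353, 451 and 175 at E15.5, and 61.3, 74.4 and 69.2 at E17.5. The E13.5 libraries all lay above those of E11.5, while the E15.5 libraries overlapped both. Rnd2 was 4.78-fold lower at E17.5 than at E15.5 (log2 change -2.26 ± 0.36, adjusted p = 5.00e-04) and 2.97-fold lower than at E11.5 (-1.57 ± 0.35, adjusted p = 0.00120). Its change at E13.5 against E11.5, which edgeR did not call, passed with DESeq2 (adjusted p = 0.0459).

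Heg1 encodes a transmembrane receptor best known from heart and vessel development. On chromosome 16 (33684370 to 33771576, plus strand) it holds 3 peaks in exons 3, 6 and 7, and peaks 1 and 2 are coding throughout. Peak 2 carries most of the counts, 75.3% to 80.1% by stage mean. Its central 300 bases, coding bases 2137 to 2436 of 4011, are printed because they are the longest bound coding stretch of the group. They lie at chr16:33726909-33727208 on mm10, plus strand, and capitals mark both arms of the longest predicted helix, of 8 base pairs.
Heg1 peak 2, central part: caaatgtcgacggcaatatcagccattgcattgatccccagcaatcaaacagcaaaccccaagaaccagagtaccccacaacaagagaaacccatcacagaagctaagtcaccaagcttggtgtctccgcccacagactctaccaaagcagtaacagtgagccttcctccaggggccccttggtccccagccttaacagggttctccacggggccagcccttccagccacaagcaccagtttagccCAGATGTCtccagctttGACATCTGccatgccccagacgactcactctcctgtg

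Summed over its peaks, Heg1 had 48.1, 115 and 69.9 CPM at E11.5, 173, 188 and 172 at E13.5, 110.4, 205 and 96.7 at E15.5, and 24.6, 30.9 and 26.5 at E17.5. The E13.5 libraries were close together and above all E11.5 libraries, and the E17.5 libraries lay below the rest. Heg1 was 2.30-fold higher at E13.5 than at E11.5 (log2 change 1.20 ± 0.33, adjusted p = 0.0141), which did not pass without E11.5 library 1 (adjusted p = 0.0681) or E11.5 library 3 (0.0507), or with peaks of at least the median score (0.0523). At E17.5 it was 5.02-fold lower than at E15.5 (-2.33 ± 0.34, adjusted p = 2.91e-04) and 2.83-fold lower than at E11.5 (-1.50 ± 0.34, adjusted p = 0.00124).

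Counted peak by peak, 12 of the 16 rows were higher at E13.5 than at E11.5 (9.36% of all 14106 peaks tested), 0 were called at E15.5 against E13.5 (0.319%; 0 with DESeq2, 1 at an unadjusted p under 0.05) and 14 were lower at E17.5 than at E15.5 (7.17%). At E17.5 against E11.5, 3 were higher (25.8% of all peaks) and 8 lower (26.1%). Without the 4 libraries numbered 2, 7 of the 16 were called at E13.5 against E11.5. The table places 9 of the rows in 3' UTRs and 7 in exons, and the share called 3' UTR over all gene rows was 46.9%.

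For none of the 5 members with more than 1 peak did the stage change differ between peaks after adjustment (edgeR test of peaks within genes), where 1.17% of 3415 such genes were called for E13.5 against E11.5 and 0.469% for E17.5 against E15.5. Dll3 came nearest, and it was the only member with an unadjusted p under 0.05 (0.0498 at E17.5 against E15.5, adjusted p = 0.999; 0.0530 at E13.5 against E11.5, adjusted p = 0.947). Peak 1 of Dll3, in exon 2, held 13.01% ± 7.0 of the gene's counts at E11.5 (SD, n = 3), 22.4% ± 2.74 in E13.5 libraries, 28.4% ± 0.92 in E15.5 and 17.6% ± 8.09 in E17.5 libraries. It rested on 3, 3 and 6 counts at E11.5.

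**Figure D3:**
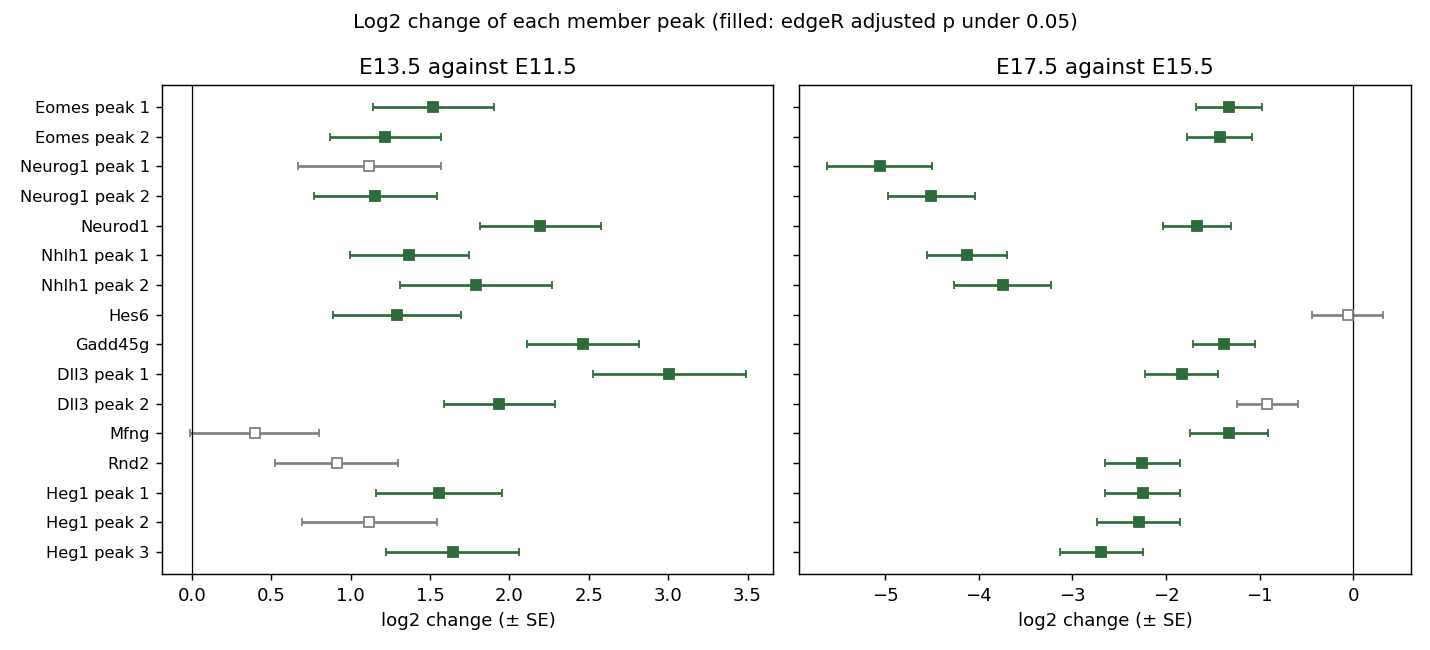
Log2 change (horizontal axis, with SE) of each of the 16 peaks in 2 panels, E13.5 against E11.5 (left) and E17.5 against E15.5 (right), filled where the edgeR adjusted p is under 0.05. Peaks of 1 gene stand next to each other and have overlapping error bars for Eomes, Neurog1, Nhlh1 and Heg1 in both panels, while Dll3 peak 1 stands at 3.01 and peak 2 at 1.94 in the left panel.

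Levels were compared between genes only per length of peak, and the result may depend on how wide the peaks were called. At E13.5, Rnd2 had 2608 ± 891 CPM per kb of peak (SD, n = 3) and stood above every other member with no overlap. Eomes followed at 465 ± 76.1, then Neurod1 at 339 ± 130.5, Nhlh1 at 329 ± 77.7 and Heg1 at 292 ± 15.3, neighbours whose libraries overlapped one another in that order. Gadd45g at 232 ± 44.3, Mfng at 195 ± 74.1 and Neurog1 at 128 ± 34.4 came next, each overlapping its neighbour. Dll3 at 62.5 ± 3.84 and Hes6 at 60.1 ± 13.9 were the lowest and overlapped. All peaks of Rnd2, Eomes and Neurod1 are 145 bases wide, the narrowest among the members. Those of Dll3 are 405 and that of Hes6 345 bases wide. The part of peak width in this order was not tested.

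Because STAU2 binds double-stranded RNA, the predicted folding of the peaks was computed. RNAfold was run on the 5387 gene rows that lie whole in 1 exon, 8 of them from members. Rnd2, the highest in CPM per kb of peak, had a predicted folding energy of -8.21 kcal/mol per 100 bases. Only 0.557% of the 5387 rows were predicted to fold less stably. Heg1 peak 1 was at the other end with -36.3 kcal/mol per 100 bases, where 92.6% of rows folded less stably. The median of the 8 member rows was -22.6 and that of all rows -25.5 kcal/mol per 100 bases, with G+C contents of 53.1% and 47.2%. These energies come from the peak sequence alone and say nothing of pairing with the rest of the RNA. The longest predicted helix had a median of 8 base pairs in the member rows and 9 in all 5387 rows.

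Within a stage, the 3 libraries did not rank the members alike. At E15.5, library 2 was high and library 3 low for Nhlh1 peak 2 (0.98 and -1.04 from the stage mean, log2 CPM), Heg1 peak 2 (0.87 and -0.71) and Rnd2 (0.59 and -0.81). Eomes peak 2 did the opposite, at -0.51 in library 2 and 0.34 in library 3. At E11.5, library 2 was high and library 1 low for the same 3 peaks, at 0.73 and -0.94 for Nhlh1 peak 2, 0.93 and -0.71 for Heg1 peak 2, and 0.33 and -0.51 for Rnd2. E13.5 differed, with library 2 at -0.43 for Nhlh1 peak 2, 0.06 for Heg1 peak 2 and -0.23 for Rnd2. In E17.5 library 2 the same peaks stood at 0.32, 0.18 and 0.14. Neurog1 peak 1 was also high in E15.5 library 2 (0.62) and low in library 3 (-0.90), but at E11.5 it stood at -0.31 in library 2 and -0.03 in library 1. Nhlh1 peak 1 had the signs of peak 2 at E15.5, with smaller values (0.18 and -0.13), and the opposite signs at E11.5 (-0.43 in library 2 and 0.23 in library 1). Heg1 peak 1 stood at -0.86 in E11.5 library 2, where Heg1 peak 2 stood at 0.93.

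**Figure D4:**
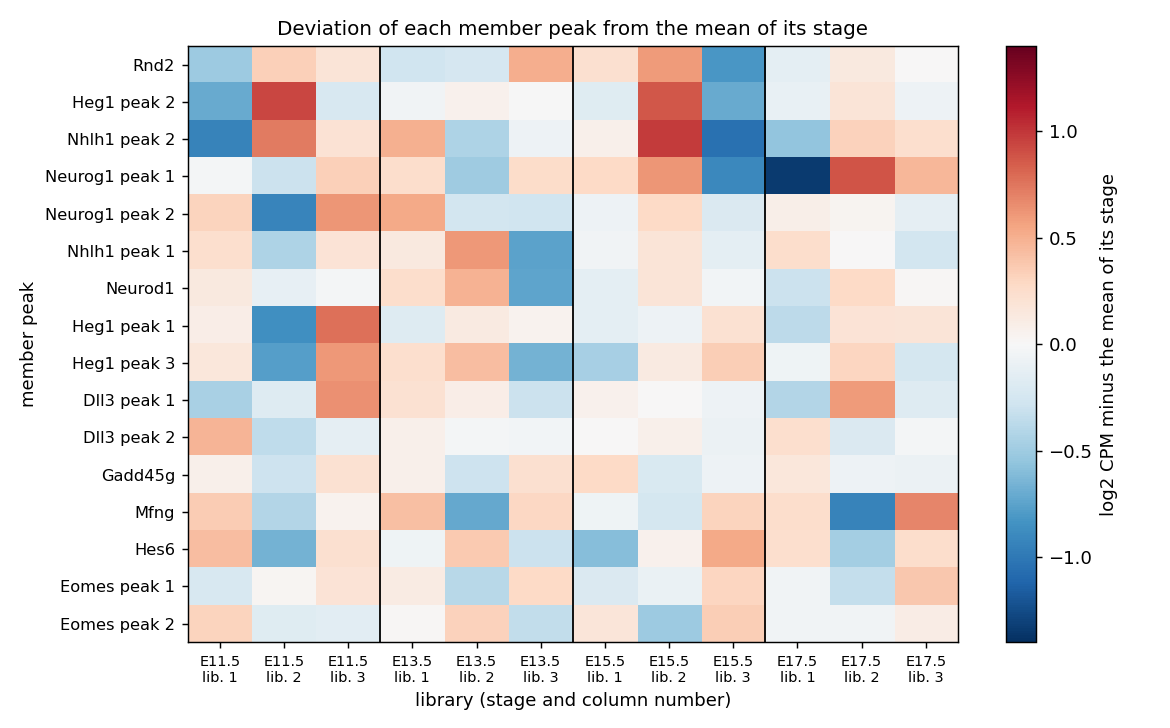
Deviation of each of the 16 peaks from the mean of its stage (colour, log2 CPM) in the 12 libraries, grouped by stage. Rnd2, Heg1 peak 2 and Nhlh1 peak 2 are red in E15.5 library 2 and blue in E15.5 library 3, and Eomes peak 2 has the colours the other way round.

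Counts on the strand opposite to the gene were also listed for 7 of the 16 member rows (Dll3, Neurog1 and Nhlh1 with both peaks, and Mfng). Their share of all counts at those 7 peaks was 20.6%, 27.8%, 15.3% and 20.4% in the libraries numbered 2, by rising stage, against 5.43% to 10.4% in the other 8 libraries. Over all gene rows with such a row the share was 6.91% to 13.6% in libraries numbered 2 and 3.59% to 12.3% in the others, so those 2 ranges overlap. The labels name nothing that the libraries numbered 2 share. Without them, 8 genes were still higher at E13.5 than at E11.5 and 9 lower at E17.5 than at E15.5, but Hes6 lost its rise at E13.5 (0.82, adjusted p = 0.187) and Rnd2 passed (1.20, adjusted p = 0.0340).

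**Figure D5:**
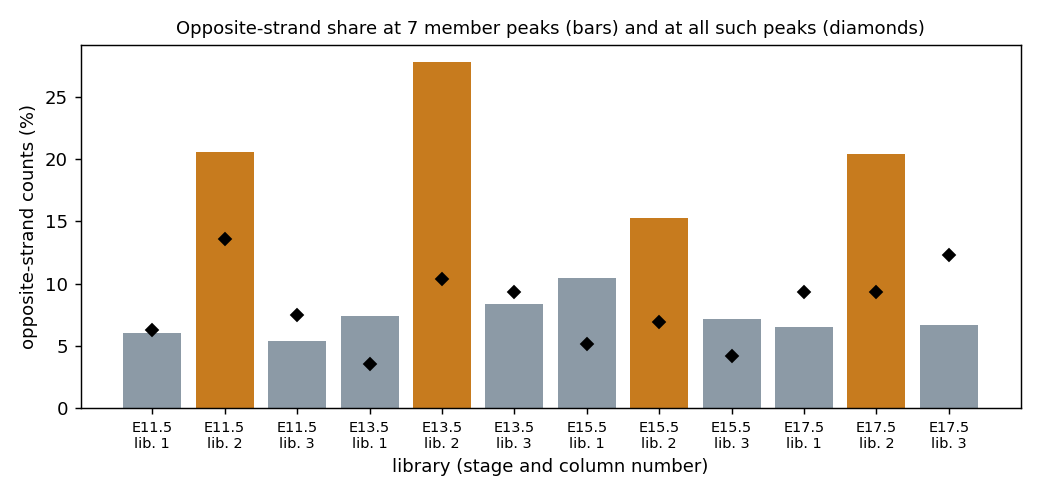
Share of counts on the opposite strand (vertical axis, percent) at the 7 member peaks that have such a row (bars, orange for libraries numbered 2) and at all gene rows with such a row (diamonds). The 4 orange bars, from 15.3% to 27.8%, stand above all grey bars.

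The genes most like Eomes over the 12 libraries, by Pearson correlation of log2 CPM among 6861 genes, were Pxylp1 (0.947), Nucb1 (0.946), Scamp2 (0.935), Ttr (0.935) and Cachd1 (0.922). Among the members, Neurod1 (0.874) and Dll3 (0.853) stood nearest to Eomes and Hes6 farthest (0.465). Those most like Neurog1 were Mphosph9 (0.975), Mpzl1 (0.963), Ston2 (0.961), Troap (0.958) and Zfp521 (0.957), with Nhlh1 at 0.947, Rnd2 at 0.923, Heg1 at 0.900 and Hes6 at -0.08 among the members. The libraries of a stage share that stage's level, so these values describe the order of stages more than 12 separate points.

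Of 33 other genes of the Notch pathway, 15 had a tested gene row, and the ligand Dll1, the fringe Lfng and the effector Hes1 were among those without one. At E13.5 against E11.5, 6 were higher and 1 lower (12.7% and 11.9% of all genes). They include the receptor Notch2 (log2 change 2.92 ± 0.31), the Notch-binding Dner (2.65 ± 0.37) and the gamma-secretase subunit Ncstn (1.92 ± 0.32), and the ubiquitin ligase gene Dtx4 stood at -1.68 ± 0.35. With scaling by gene-row totals 11 were higher and 0 lower, where 65.7% of all genes were called higher and 1.75% lower.

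The Notch list then gave 0 calls at E15.5 against E13.5 (1 at an unadjusted p under 0.05). At E17.5 against E15.5, 6 were lower and 2 higher (11.1% and 9.37% of all genes). Notch1 (log2 change -2.12 ± 0.38), Notch2 (-1.74 ± 0.28) and the transcriptional partner Rbpj (-1.24 ± 0.22) fell, and the ubiquitin ligase Mib2 rose by 1.93 ± 0.32. At E17.5 against E11.5, 6 were higher and 6 lower (28.8% and 29% of all genes). With scaling by gene-row totals 8 were higher and 0 lower (59.2% and 10.3% of all genes). Under TMM Mib2 stood at 3.87 ± 0.36, Dner at 2.35 ± 0.37, Numbl at 1.69 ± 0.24 and Rbpj at -1.36 ± 0.23. Over the 15 genes the median log2 change was 0.39 for E13.5 against E11.5 and -0.71 for E17.5 against E15.5, beside 1.25 and -1.55 for the 10 members.

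Of 24 other basic helix-loop-helix factors and their partners, 11 had a tested gene row, and Neurog2, Insm1 and Neurod2 did not. With scaling by gene-row totals 5 were higher and 1 lower at E13.5 against E11.5 (65.7% and 1.75% of all genes). Under TMM 4 were higher and 4 lower (12.7% and 11.9% of all genes). Neurod6, a factor of postmitotic cortical neurons, averaged 752 CPM at E13.5 and 19.1 CPM at E11.5 (log2 change 5.31 ± 0.39). The E protein gene Tcf4 stood at 1.69 ± 0.26, the corepressor gene Cbfa2t3 at 1.72 ± 0.35 and Ebf2 at -2.22 ± 0.37. Ebf2, a factor of early-born neurons, was the only gene of these pathway lists called at E15.5 against E13.5 (-1.92 ± 0.40, adjusted p = 0.0380), a call lost with scaling by gene-row totals.

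At E17.5 against E15.5, 4 genes of the helix-loop-helix list were lower and 1 higher (11.1% and 9.37% of all genes). The E protein genes Tcf12 (log2 change -1.50 ± 0.27) and Tcf3 (-1.03 ± 0.32) and the zinc finger gene Myt1 (-1.38 ± 0.33) fell, while Olig2, a factor of the oligodendrocyte lineage, rose by 3.88 ± 0.54. At E17.5 against E11.5 the list had 4 higher and 5 lower (28.8% and 29% of all genes). With the other scaling 6 were higher and 2 lower (59.2% and 10.3% of all genes). Under TMM Neurod6 stood at 5.34 ± 0.39, Ebf2 at -5.70 ± 0.49, Tcf12 at -2.91 ± 0.29 and Cbfa2t3 at 3.15 ± 0.36.

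Of 30 other genes linked to intermediate progenitors, 15 had a tested gene row, and Btg2, Insm1 and Sox11 did not. With scaling by gene-row totals 14 were higher and 0 lower at E13.5 against E11.5 (65.7% and 1.75% of all genes). Under TMM 9 were higher and 1 lower (12.7% and 11.9% of all genes). Mdga1, an adhesion molecule, stood at 3.08 ± 0.26 on the log2 scale, the semaphorin receptor Plxna2 at 3.43 ± 0.45, the planar polarity cadherin Celsr1 at 3.86 ± 0.54 and Igfbpl1 at 2.84 ± 0.47. None was called at E15.5 against E13.5 (3 at an unadjusted p under 0.05). At E17.5 against E15.5, 9 were lower and 0 higher (11.1% and 9.37% of all genes). Among the lower were the matrix gene Mfap4 at -2.54 ± 0.33, the chromatin remodeller Chd7 at -1.36 ± 0.23, Celsr1 at -2.02 ± 0.42 and Igfbpl1 at -1.98 ± 0.46. At E17.5 against E11.5, 7 were higher and 5 lower (28.8% and 29% of all genes). With the other scaling 10 were higher and 0 lower (59.2% and 10.3% of all genes). Under TMM Mdga1 stood at 3.13 ± 0.26, Plxna2 at 2.16 ± 0.45, Sox4 at 1.62 ± 0.34 and Chd7 at -1.38 ± 0.24.

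Markers of other cell types moved between the same stages. Mitotic genes, 7 of 8 with a tested row, summed to 713 to 1079 CPM in E11.5 libraries, 604 to 738 CPM in E13.5, 415 to 496 CPM in E15.5 and 115 to 146 CPM in E17.5 libraries. Of the 7, 6 were lower at E17.5 than at E15.5 (11.1% of all genes). At E13.5 against E11.5, 1 was higher (Ccnd2, log2 change 1.64 ± 0.38) and 1 lower (Mki67, -1.23 ± 0.41). Over all genes 12.7% were called higher there and 11.9% lower. Markers of postmitotic projection neurons, 10 of 12, summed to 696 to 757, 2449 to 2721, 3363 to 4118 and 4949 to 5489 CPM in the same order of stages. At E17.5 against E15.5, 4 of these 10 were higher and 2 lower (9.37% and 11.1% of all genes). The 2 lower were Fezf2 at -0.70 ± 0.23 and Sox5 at -0.98 ± 0.24. Markers of radial glia, 7 of 11, summed to 427 to 566, 634 to 924, 722 to 758 and 746 to 1118 CPM. Of these 7, 4 were lower and 1 higher at E17.5 than at E15.5 (11.1% and 9.37% of all genes), although their sum was not lower. The part of these markers' cell types in the members' changes was not tested.

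RNAs of choroid plexus and meninges, which are not cortex, were also present, and their markers summed highest at E13.5. Choroid plexus markers, 2 of 3, summed to 11.2 to 19.0 CPM in E11.5 libraries, 444 to 571 CPM in E13.5, 59.1 to 116 CPM in E15.5 and 1.24 to 2.98 CPM in E17.5 libraries, nearly all of it Ttr at E13.5. Meningeal markers, 7 of 7, summed to 242 to 285, 299 to 321, 31.4 to 39.5 and 3.48 to 4.13 CPM. Interneuron markers, 5 of 8, summed to 137 to 170, 199.9 to 433, 209 to 543 and 605 to 700 CPM, most at E17.5. Their sum hides markers that moved apart: at E13.5 against E11.5, 2 were higher and 2 lower (12.7% and 11.9% of all genes). Mean levels went from 2.59 to 281 CPM for Sst and from 109 to 20.4 CPM for Dlx2. Of the markers of Cajal-Retzius cells 2 of 6 had a tested row (at most 68.9 CPM summed), of blood and vessels 2 of 6 (at most 25.4 CPM) and of microglia 1 of 4 (at most 5.29 CPM). Of the 7 meningeal markers 6 were lower at E15.5 than at E13.5, where 0.673% of all genes were called in either direction. At E17.5 against E15.5, 5 of them were lower (11.1% of all genes). The part of these tissues in the members' values was not tested at any step.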

How the data were processed

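The authors deposited whole-number read counts for merged STAU2 peaks, per peak and strand, in 12 columns, with a peak score that was used here only for a stricter choice of peaks. Per the submitters' processing notes HOMER 4.10 and the builds mm10 and GRCm38 were used, with aligner, counter and peak-call settings not given in the sources used here. Per the labels' protocols ribosomal RNA was depleted and libraries were made with a ScriptSeq kit. Column names carry a stage and number that the labels give to an immunoprecipitation and to an input alike; they were read as immunoprecipitations because the table lists peaks. The table holds 18975 rows over 13879 merged peaks. Rows called Intergenic (4513, all even, exactly double wherever one shares peak and strand with a gene row) and 165 others without a gene were left out; opposite-strand counts are such rows halved. 0 columns were unmapped.

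Counts were summed per gene (7876 tested) and also tested per peak (14106) with edgeR 4.0.16 in R 4.3.3: filterByExpr, TMM, quasi-likelihood F tests over 12 libraries, Benjamini-Hochberg at 0.05; all 16 member rows passed the filter. Peaks within genes were compared with diffSpliceDGE. The procedure was tested on simulated data. p-values measure the spread between these libraries, which may be technical. The common biological coefficient of variation was 0.305 for gene sums and 0.342 for peaks. Alternatives were DESeq2 1.42.0, scaling by gene-row totals, no filter, a replicate block, a score at or above the median, only the stages compared and each library left out. Other alternatives, added after seeing the data, were opposite-strand counts added and the 8 libraries not numbered 2. Annotation and printed sequences come from GENCODE vM21 transcripts of GRCm38, the files' build; folding used RNAfold 2.7.2. The members and gene lists were chosen with earlier results of these data known; pathway genes named are those called with the smallest p, up to 4 per list and comparison.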

Additional observations from a re-analysis of the deposited data

Results flagged for a closer look

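Opposite-strand counts, which enter the comparisons of gene sums and peaks only under the alternative that adds them, were above the 3 counts that a count of 0 allows at all 7 member peaks that have such a row. Over the 12 libraries they came to 1822 at Nhlh1 peak 2 (20.9% of all counts there), 471 at Dll3 peak 2 (19.2%), 319 at Nhlh1 peak 1 (10.8%), 109 at Neurog1 peak 1 (5.10%), 53 at Neurog1 peak 2 (2.56%), 51 at Mfng (1.37%) and 25 at Dll3 peak 1 (3.89%). At Nhlh1 peak 2 the share was 29.0% in the libraries numbered 2 and 14.6% in the other 8, and at Dll3 peak 2 it was 31.1% and 12.6%. At Nhlh1 peak 2 the opposite-strand counts were 18, 71 and 19 at E11.5, 184, 544 and 180 at E13.5, 207, 463 and 90 at E15.5, and 4, 32 and 10 at E17.5, so they were highest at the stages where the sense counts were. Groups of 3 libraries are too small for an outlier test, and none was run.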

How the results depend on the processing

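Of 40 member changes (10 genes in 4 comparisons), 25 were called, and 16 of these kept direction and call under every alternative that gave a value (Neurod1 has none under the score limit); none of the 25 reversed. The other 9 stand above with the settings that lost them. The cause of the differences below was not tested, except that a score at or above the median tests fewer features. Called counts at E15.5 against E13.5 were 53 gene sums by edgeR, against 134 with DESeq2, 30 with the score limit, 21 without libraries numbered 2 and 11 (E15.5 library 1) to 54 leaving out 1 library; 45 peaks by edgeR, against 100 with DESeq2, 28 with the score limit, 105 without libraries numbered 2 and 19 (E15.5 library 1) to 58 leaving out 1. The replicate numbers were not taken to pair the libraries, since not every same-numbered pair correlates above 0.1: deviations of libraries numbered 1 correlate between -0.179 and 0.119 across stages, those numbered 3 between -0.125 and 0.202 and those numbered 2 between 0.181 and 0.555, all positive (different numbers: median -0.149). Of the 12 libraries, 4 correlate best with their own number, and these are the 4 numbered 2. No library numbered 1 or 3 does so. A replicate block raised the peaks called at E15.5 against E13.5 to 75, moved Hes6 there to -0.0029 and changed no call of a member gene, with 13 member peaks called in place of 12 at E13.5 against E11.5.

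Scaling by gene-row totals called 5310 gene sums (5172 higher, 138 lower; 1937 with TMM) and 8511 peaks (8325 higher, 186 lower; 2433 with TMM) at E13.5 against E11.5, and turned Eomes to 0.13 and Neurog1 to 0.029 at E15.5 against E13.5 and Eomes to 0.92 at E17.5 against E11.5. The score limit left 1161 gene sums at E13.5 against E11.5, 853 at E17.5 against E15.5, 2715 at E17.5 against E11.5 and 2474 over 4 stages; 1448, 977 and 3868 peaks in the same comparisons; 6 and 8 of the 10 member peaks kept, for E13.5 against E11.5 and E17.5 against E15.5; and 12 and 2 genes with peaks that differ there. Genes with peaks that differ at E17.5 against E15.5 were 9 with only these stages and 7 without libraries numbered 2, which also left 7 member peaks at E13.5 against E11.5 and turned Eomes to 0.25, Nhlh1 to -0.36 and Gadd45g to -0.034 at E15.5 against E13.5 and Hes6 to 0.080 at E17.5 against E15.5. Leaving out 1 library gave 1530 (E13.5 library 1) to 2578 peaks at E13.5 against E11.5, 1054 (E17.5 library 1) to 1926 at E17.5 against E15.5, where E15.5 library 3 (1198) and E17.5 library 3 (1160) also lowered the count, and for the same comparisons 17 (E13.5 library 1) to 45 and 6 (E17.5 library 3) to 15 genes with peaks that differ. At E15.5 against E13.5 it gave -0.26 to 0.13 for Eomes, -0.37 to 0.068 for Neurog1, -0.20 to 0.31 for Neurod1, -0.28 to 0.45 for Nhlh1, -0.28 to 0.30 for Hes6, -0.15 to 0.14 for Gadd45g and -0.52 to 0.10 for Rnd2, and at E17.5 against E15.5 -0.32 to 0.26 for Hes6. The alternatives without libraries numbered 2 and with opposite-strand counts added were chosen after seeing the data.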
